A study of Mus musculus with 2 samples.

Results

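Mature neutrophils are the short-lived, fully differentiated granulocytes that leave the bone marrow for the blood and enter inflamed tissue. Here they were cells selected on measured RNA counts in single-cell libraries of the mouse temporomandibular joint (TMJ). Each count is a unique molecular identifier (UMI), which marks 1 captured RNA molecule, and each droplet of the assay is a barcode. A barcode was kept when it held at least 500 genes, at most 10% of UMIs from mitochondrial genes and at most 1% from 4 hemoglobin genes. A kept barcode was chosen by 5 measured values. S100a8 and S100a9 together made up at least 2% of its UMIs, the specific granule genes Ngp, Camp and Ltf together made up under 1%, and the azurophil granule genes Mpo, Elane, Prtn3 and Ctsg together made up under 0.2%. Csf3r, Retnlg and Cxcr2 summed to at least 2 UMIs, and the endothelial genes Pecam1 and Cdh5 summed to under 2 UMIs. This rule chose 139 of 6681 kept barcodes, out of 13380 deposited, with 10 cells from the joints given phosphate-buffered saline (PBS) and 129 from the joints given complete Freund's adjuvant (CFA).

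The study placed CFA, an oil emulsion of killed mycobacteria that inflames a joint, or PBS into the TMJ of mice and measured RNA in single cells of the dissected joint tissue. Both groups were WT C57BL/6 mice, given in the labels as 8-10 weeks old, and the methods describe females injected at 8 weeks with 10 µL (CFA at 5 mg/mL) and collected 3 weeks later. The tissue held condyle, disc, temporal bone, muscle and ligament from perfused mice. Nanobeads against CD45, found on nearly every leukocyte, reduced immune cells before loading, so counts of neutrophils do not give their share of the joint. The paper reports that immune cells remained after this step, with a larger share in CFA than in PBS. The methods describe joint samples as n = 3, but each group is 1 library, and the labels and the methods name different digestion enzymes and different versions of the droplet kit.

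With 1 library in each group there are no replicates, so no difference between the groups was tested, and the condition cannot be told apart from the library. Intervals are exact 95% intervals and cover counting error only.

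Neutrophils develop in bone marrow and fill their granules in sequence, azurophil granules at the promyelocyte stage, then specific granules, then gelatinase granules, and most of these genes fall silent in the mature cell. The mature cell carries receptors for chemokines and bacterial products, such as Cxcr2, and can be induced to make cytokines, of which interleukin-1 beta is the best known. In joints, neutrophils are drawn in by chemokines and release proteases, oxidants and cytokines.

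The PBS library held 7671 barcodes and 51146169 UMIs, of which 2667 barcodes were kept. In PBS, a further 3178 barcodes were kept out by the hemoglobin limit alone. The CFA library held 5709 barcodes and 53517206 UMIs, with 4014 kept and 339 kept out by the hemoglobin limit alone. Kept barcodes had a median of 7022 UMIs in PBS and 6509.5 in CFA, so the typical depth was alike. The libraries shared 10 barcode sequences, none of them of a mature neutrophil (0 cells). The mature neutrophils held a median of 4344.5 UMIs in PBS and 4690 in CFA.

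The label was checked against neutrophil genes that the rule did not use, in the CFA cells as counted. A UMI of Clec4d, a C-type lectin receptor, was in 100% of the 84 CFA cells that remain after the step described next, against 7.20% of CFA Schwann cells, which should lack it. Hdc, the histamine-making enzyme, was found in 98.8% against 3.20%, and Il1r2, the decoy receptor for interleukin-1, in 94.0% against 2.93%. Median depth was 3694.5 UMIs in the neutrophils and 3676 in the Schwann cells. Markers of other granulocytes were at or near 0 in these cells, with 5 UMIs over the 5 eosinophil genes, Epx and Ccr3 at 0, and 0 UMIs over the 5 basophil and mast cell genes. These 3 genes thus go with the label in the 84 cells, but monocytes and macrophages were not part of this comparison. Some other neutrophil genes, such as Mmp8, were in fewer of the cells, as given below. A further group of chosen cells carried genes of other cell types as well.

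That group is described before the results because it moves many of them. Cells were called other-marker cells when they held 10 or more UMIs over 40 marker genes of monocytes (without Ly6c2), macrophages, B cells, T and NK cells, endothelial cells, fibroblasts, Schwann cells and MHC class II. This limit was chosen after the data were seen. It was met by 2 of 10 PBS cells (20%) and 45 of 129 CFA cells (34.9%, 26.7 to 43.8). The CFA cells fell into separate ranges, with 84 cells at 9 UMIs or fewer, only 5 cells between 10 and 49, and 40 cells at 50 or more. The 45 CFA cells were deep, with a median of 15305 UMIs against 3694.5 in the other 84, and 35 of the 45 were over 10000 UMIs against 1 of the 84. They held 73.5% of all UMIs of CFA mature neutrophils.

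In the 45 CFA cells the MHC class II list, whose proteins present antigen, summed to 6151 UMIs, led by Cd74 with 2868. The macrophage list summed to 2136 UMIs, led by the complement gene C1qb with 652. The monocyte list summed to 1824, led by F13a1 with 464, and the fibroblast list to 1015, led by Col1a1 with 599. In the other 84 CFA cells Ccr2, F13a1, Ms4a6c and Ly86 of the monocyte list were at 0, the macrophage list held 56 UMIs and the T and NK list 2, and these lists are low there by the way the cells were chosen. No doublet caller was run. Whether these barcodes hold more than 1 cell was not tested, and the comparisons of the libraries are given mainly without them, in what is called the reduced set, with values for all members beside them where stated.

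**Figure D1:**
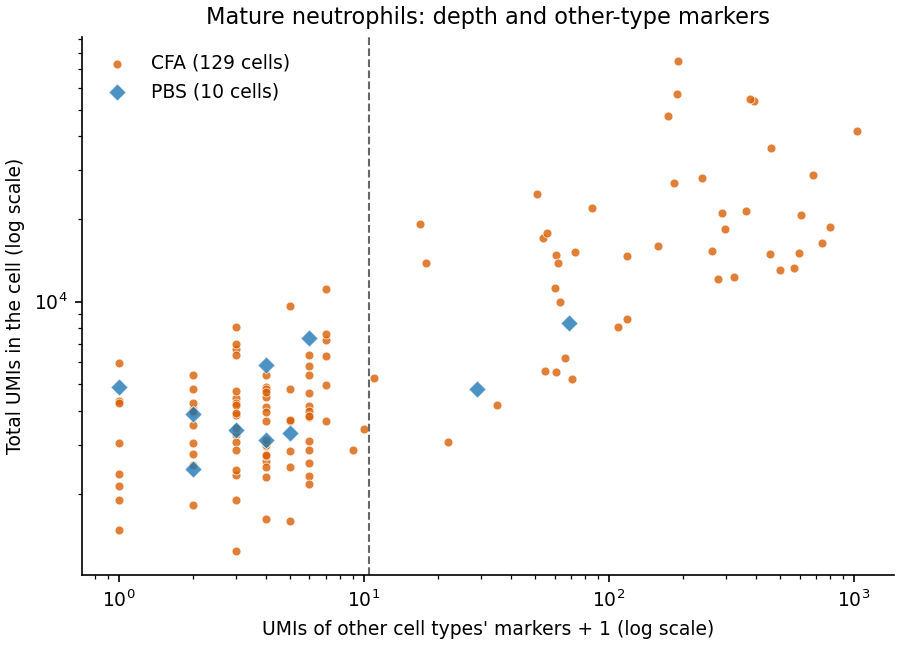
Total UMIs of each mature neutrophil against its summed UMIs of marker genes of other cell types plus 1, both on log axes, with PBS and CFA cells in separate colours and a dashed line at the limit of 10. The 40 CFA cells with 50 or more such UMIs sit apart, mostly at high depth, from the 84 CFA cells below the limit.

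The rule has thresholds, and cells lie on both sides of them. In CFA, 24 members had an S100a8 plus S100a9 share from 2% to under 3% (lowest 2.01%), and 27 barcodes that met every other limit had a share from 1% to under 2% (highest 1.95%). For the specific granule genes, 16 CFA members lay from 0.5% to under 1% and 8 barcodes from 1% to under 2%. In PBS, 3 members lay just inside the specific granule limit and 2 barcodes just outside it. The endothelial limit kept out 4 barcodes with 2 or 3 UMIs of Pecam1 and Cdh5 in each library, which weighs more in PBS with its 10 members. Hemoglobin over 1% alone kept out 5 PBS barcodes (lowest 10.9%) and 2 CFA barcodes (lowest 4.67%). The S100 limit thus runs through a continuous range of CFA cells, so the set is a range and not a closed type.

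As a description, mature neutrophils made up 0.375% of kept barcodes in PBS (10 of 2667, 0.180 to 0.689) and 3.21% in CFA (129 of 4014, 2.69 to 3.81), a CFA/PBS ratio of 8.57 (4.51 to 18.3). In the reduced set the shares were 0.30% (8 cells) and 2.09% (84 cells), a ratio of 6.98 (3.38 to 16.7). Immature neutrophils, chosen by the same S100 limit but with the specific granule genes at 1% or more, rose less, from 1.31% (35 cells) to 3.16% (127 cells), a ratio of 2.41 (1.65 to 3.61). Monocytes, chosen by Ccr2 and Ly6c2, rose from 1.05% (28 cells) to 4.76% (191 cells), a ratio of 4.53. Among mature and immature neutrophils together, the mature share was 22.2% in PBS (11.2 to 37.1) and 50.4% in CFA (44.1 to 56.7). In the reduced set it was 18.6% of 43 cells and 39.8% of 211, where other-marker cells were left out of the mature cells only, which lowers the share. Mature cells were thus the smaller part of the neutrophils in PBS and about as many as the immature ones in CFA when all members are counted. All of these shares follow the CD45 depletion, and its part in them was not tested. The hemoglobin limit changes the PBS value, since with no such limit the mature share of mature and immature neutrophils was 10.6% in PBS (15 of 141) and 50.4% in CFA (131 of 260). With the limit these totals were 45 in PBS and 256 in CFA. It thus kept out mostly immature cells of PBS, and the immature ratio of 2.41 depends on it.

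Gene levels were compared by summing UMIs over the mature neutrophils of a library and scaling to a total of 1000000 UMIs (counts per that total, CPM). UMIs count each molecule once near its 3′ end, so CPM is not scaled to gene length. Genes were compared when both libraries had 10 or more UMIs. Of these 803 genes, 45 were at least 2-fold higher in CFA (5.6% of the genes compared) and 144 at least 2-fold lower (17.9%), with a median log2 ratio of -0.33. In the reduced set, of 562 genes, 19 were higher (3.38%) and 58 lower (10.3%), with a median of -0.02. Only 4 of those 19 genes, Tnfaip2, Cd14, Alcam and Rnf149, were also among the 45, while 47 of the 58 were among the 144. Most of the genes higher with all members were thus either below 2-fold or too low to be compared once the other-marker cells were left out.

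The genes that change most between the 2 sets show this. Psap, a lysosomal protein, had a CFA/PBS ratio of 12.8 in all members and 1.80 in the reduced set, there on 7 PBS UMIs. Lyz2, lysozyme, had 4.17 in all members and 0.686 in the reduced set. Lgals3, galectin-3, had 3.73 and 0.975. Cd74, the MHC class II invariant chain, had 5.76 in all members, and 26 UMIs in CFA against 1 in PBS in the reduced set. These genes are also made by macrophages and monocytes.

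The PBS side rests on few cells. The 8 PBS cells of the reduced set held 34370 UMIs, so 1 UMI is 29.1 CPM, while the 84 CFA cells held 332769 UMIs, so 1 UMI is 3.005 CPM. A single PBS cell with 7374 UMIs held 232 of the 237 Ccl4 UMIs, 125 of 129 Ccl3 UMIs, 224 of 280 Cxcl2 UMIs, 27 of 29 Il1rn UMIs and 55 of 79 Isg15 UMIs. This cell had the lowest S100a8 plus S100a9 share of the PBS members, 7.08%. Of the 58 genes lower in CFA, 24 had over 50% of their PBS UMIs in 1 cell, against 3 of the 19 higher genes. Without this cell as well, 410 genes could be compared, of which 20 were at least 2-fold higher in CFA (4.88%) and 50 lower (12.2%), with a median log2 ratio of -0.08. Values without it are given below wherever it decides a direction.

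**Figure D2:**
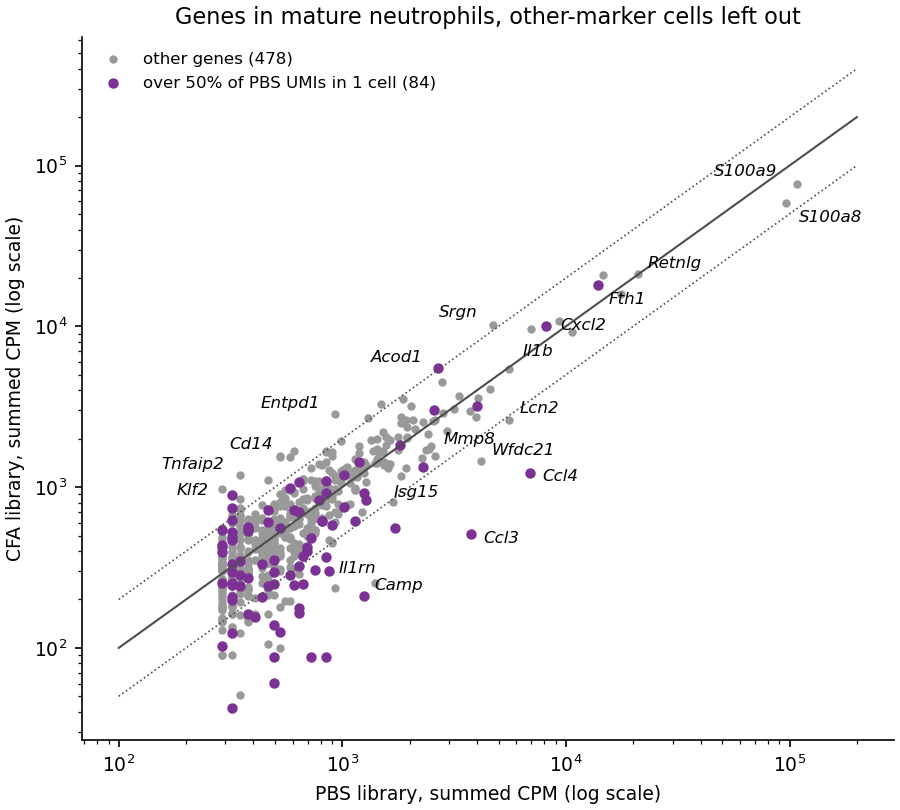
Summed level of each of 562 genes in CFA against PBS mature neutrophils (CPM, log axes, other-marker cells left out), with a solid line at equal levels and dotted lines at 2-fold. The 84 purple points have over 50% of their PBS UMIs in 1 cell, and Ccl3 and Ccl4, far below the line, are among them.

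S100a8 and S100a9 encode the subunits of calprotectin, which binds metal ions and makes up much of the neutrophil cytosol. Both chose the members, so their levels are a description. In the reduced set S100a8 was at 96392 CPM in PBS and 58257 CPM in CFA, a ratio of 0.604, and S100a9 at 108379 and 76933 CPM, a ratio of 0.710. The median share of both together was 24.2% per PBS cell and 12.4% per CFA cell. With all members the ratios were 0.329 and 0.379. CFA cells were lower on both genes in each set of cells compared.

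Among the receptors and secreted proteins of the rule, Retnlg, a resistin-like secreted protein (ENSMUSG00000022651, chr16:48872621-48874496, plus strand), was at 20919 CPM in PBS and 21114 CPM in CFA in the reduced set, a ratio of 1.01. With all members its ratio was 0.492. Csf3r, the receptor for granulocyte colony-stimulating factor, had a ratio of 1.27 in the reduced set and 0.742 with all members. Cxcr2, the main receptor for neutrophil chemokines, had 1.03 and 0.50. All 3 genes chose the members, so these levels are a description.

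In the reduced set the specific granule list, part of which the rule limits, had 0 of 5 compared genes higher and 2 lower (Camp and Lcn2), with a median log2 ratio of -0.99 against -0.02 over all genes, 10.3% of which were lower. Camp, which encodes the cathelicidin antimicrobial peptide, was a rule gene, and 31 of its 43 PBS UMIs were in 1 cell just under the specific granule limit. Its ratio of 0.168 thus rests largely on that cell and on the limit, and with all members it was 0.564. Lcn2, which binds bacterial iron carriers, fell from 5586 CPM to 2629 CPM, a ratio of 0.471. The gelatinase granule list had 0 of 5 genes past 2-fold and a median of -0.61. Mmp8, the neutrophil collagenase, was at 2502 CPM in PBS and 1809 CPM in CFA, a ratio of 0.723, and Mmp9, gelatinase B, at 1833 and 1166 CPM, a ratio of 0.636. Wfdc21, a secreted protein with a whey acidic domain, was at 4190 and 1445 CPM, a ratio of 0.345. Leaving out the 1 PBS cell lowered these ratios further, to 0.394 for Lcn2, 0.603 for Mmp8, 0.572 for Mmp9 and 0.271 for Wfdc21. With all members they were 0.321, 0.450, 0.399 and 0.210. These 4 genes were thus lower in CFA in each of the 3 sets of cells, though Wfdc21 reversed to 1.32 under a stricter limit of fewer than 2 UMIs over the marker lists of other cell types with Ly6c2 and without MHC class II, which keeps 1 PBS cell.

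Some cytokine and chemokine genes depend on the single PBS cell and others do not. Il1b, which encodes interleukin-1 beta (ENSMUSG00000027398, chr2:129364570-129371139, minus strand), was at 6983 CPM in PBS and 9637 CPM in CFA in the reduced set, a ratio of 1.38 (1.21 to 1.58), and 1.37 without the 1 PBS cell. With all members its ratio was 0.799. Its UMIs were spread over the PBS cells, with 0 to 64 in each of the 8, and its direction depended on the other-marker cells. Scaled by the median ratio of genes in place of the total, its all-members ratio was near equality. Cxcl2, a chemokine that binds Cxcr2, was at 8147 and 10070 CPM, a ratio of 1.24, and 0.832 with all members (above equality by the other scaling). Leaving out the 1 PBS cell brought its PBS level to 2074 CPM and its ratio to 4.85 (3.73 to 6.44). The other 7 PBS cells held 0 to 22 Cxcl2 UMIs each, against 224 in that cell.

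Ccl4, a chemokine for monocytes and T cells, was at 6896 CPM in PBS and 1229 CPM in CFA in the reduced set, a ratio of 0.178, and 0.160 with all members. Without the 1 PBS cell its PBS level was 185 CPM and its ratio 6.64 (2.82 to 20.6). Its neighbour Ccl3 moved the same way, from a ratio of 0.135 to 3.43 (1.31 to 12.7). Il1rn, the antagonist of the interleukin-1 receptor, went from 0.438 to 4.99, and Csf1, a growth factor of macrophages, from 0.491 to 7.71. For these 4 genes the direction between the libraries was set by that cell, and the other 7 cells held fewer than 10 UMIs of each, too few for a comparison. By list, interleukin-1 family and other cytokines had 0 of 5 genes higher, 3 lower and a median log2 ratio of -1.03 in the reduced set. The chemokine list had 0 of 4 higher, 2 lower and a median of -1.28. Of all genes, 3.38% were higher and 10.3% lower. Without the cell, 2 genes of each list could be compared, of which none of the cytokines and 1 chemokine, Cxcl2, was past 2-fold, beside 4.88% of all genes higher and 12.2% lower.

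Interferon-stimulated genes encode antiviral proteins that follow type I or type II interferon. The type I list had 0 of 16 compared genes higher and 3 lower in the reduced set, beside 3.38% and 10.3% of all genes, a median of -0.42, and without the 1 PBS cell 0 of 11 past 2-fold and a median of -0.01. Isg15, a ubiquitin-like protein, was at 2299 CPM in PBS and 1325 CPM in CFA, a ratio of 0.577, 1.49 without the cell and 0.325 with all members. Cxcl10, a chemokine for T cells (ENSMUSG00000034855), had 371 UMIs in CFA against 4 in PBS, a ratio of 9.58 (3.71 to 35.3), and 6.64 with all members. Those 371 UMIs came from 18 of the 84 CFA cells, and 80 of them from 1 cell. Without the 1 PBS cell no Cxcl10 UMI was left in PBS, and CFA was at least 10.0-fold higher against the floor of 3 UMIs over the PBS cells. The median of the type I list thus lay near 0 once the 1 PBS cell was left out. The interferon gamma list summed to 1338 CPM in PBS and 4454 CPM in CFA in the reduced set, 630 CPM in PBS without the 1 PBS cell, and 1010 and 3100 CPM with all members. Only 1 of its genes, Cd274, had enough UMIs to be compared, so this sum was higher in CFA in each set of cells but rests on few PBS UMIs (46 in the reduced set).

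With all members, whose median over all genes was -0.33, the lists used here had other values. All 5 gelatinase granule genes were at least 2-fold lower in CFA (median -1.27), as were 2 of 7 specific granule genes (-0.68), 4 of 5 cytokines (-1.08), 2 of 4 chemokines (-1.45) and 6 of 17 type I interferon genes (-0.79), beside 17.9% of all genes. The pattern recognition list had 1 of 8 genes higher (median -0.115) and NADPH oxidase subunits 1 of 6 (0.07), beside 5.6% of all genes. MHC class I had 1 of 3 higher (0.97) and immediate early and NF-kB feedback genes 0 of 13 (0.13), beside the same 5.6%. Glycolysis genes had 2 of 7 lower (-0.39), a share near that of all genes, as for the specific granule list, and survival genes 0 of 3 past 2-fold (-0.58). The gelatinase granule list was lower by more with the other-marker cells than without them, and the specific granule list by less.

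Several named genes of microbe sensing and of the cell surface were higher in CFA with or without the 1 PBS cell. Cd14, a co-receptor for bacterial lipopolysaccharide, was at 524 CPM in PBS and 1536 CPM in CFA in the reduced set, a ratio of 2.93 (1.84 to 4.99), and 3.19 without the cell. Clec4e, a lectin that binds a mycobacterial glycolipid, had a ratio of 2.64 and 2.96. Entpd1, which breaks down extracellular ATP, was at 931 and 2849 CPM, a ratio of 3.06 and, without the cell, 3.85. Alcam, an adhesion protein, had ratios of 3.00 and 3.85. Ccr1, the receptor for Ccl3, had a ratio of 2.43 (1.37 to 4.75) on 12 PBS UMIs, of which 6 were in the 1 PBS cell, so it was not compared without that cell. The pattern recognition list had 2 of 7 compared genes higher and 0 lower, a median of 0.35, and without the cell 3 of 6 higher. These shares lie above the 3.38% and 4.88% of all genes compared, over few genes. With all members the ratios were 2.64 for Cd14, 1.78 for Clec4e, 1.64 for Entpd1 and 2.11 for Alcam, so each of these 4 was higher in CFA in every set, with only Cd14 and Alcam past 2-fold in all of them. For Ccr1 the ratio with all members was 1.34 (0.803 to 2.40), not distinguishable from equality.

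Other genes at least 2-fold higher in the reduced set were Tnfaip2 (3.42, 1.93 to 6.67), a gene induced by tumor necrosis factor, and Klf2 (3.35, 1.80 to 7.05), a transcription factor that restrains activation. Samhd1, which breaks down deoxynucleotides, had a ratio of 2.73. Srgn, the proteoglycan core of granules, was at 4743 CPM in PBS and 10136 CPM in CFA, a ratio of 2.14 (1.83 to 2.52), and 2.71 without the 1 PBS cell. With all members the ratios were 2.25 for Tnfaip2, 1.43 for Klf2, 1.77 for Samhd1 and 1.29 for Srgn, so of these only Tnfaip2 stayed past 2-fold. Acod1, which makes itaconate, had a ratio of 2.04, and 1.08 with all members, with 48 of its 92 PBS UMIs in the 1 PBS cell. Several of these genes lie outside the rule for named genes and were chosen after their values were seen.

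Cd274, which encodes the ligand PD-L1, had a ratio of 2.81, and 1.92 with all members, but its 11 PBS UMIs were all in the 1 PBS cell. Against the floor of 3 UMIs in the other 7 PBS cells, CFA was at least 8.09-fold higher. Cxcr4, the receptor that returns aged neutrophils to bone marrow, had 65 UMIs in CFA and 1 in PBS, a ratio of 6.71 (1.16 to 269), and a ratio of 1.80 with all members. The depth in PBS gives a wide interval for Cxcr4, and its level in PBS is not well set by 1 UMI.

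The MHC class I list, which presents peptides to CD8 T cells, had 0 of 3 genes past 2-fold and a median log2 ratio of 0.72, and without the 1 PBS cell all 3 were at least 2-fold higher, with H2-K1 at 2.35, H2-D1 at 2.01 and B2m at 2.13, beside 4.88% of all genes. Immediate early and NF-kB feedback genes had 1 of 13 higher and 0 lower in the reduced set, beside 3.38% and 10.3% of all genes, with a median of 0.24. In that list Nfkbia, the inhibitor of NF-kB, went from a ratio of 1.18 to 4.08 without the cell. Cytokine receptors (median 0.34 over 3 genes), NADPH oxidase subunits (-0.09 over 4) and granulocyte transcription factors (0.24 over 7) had no gene past 2-fold. Nor did the adhesion list (0.11 over 5), which does not hold Alcam. Fth1, the ferritin heavy chain that stores iron, had a ratio of 1.31, and 2.33 without the cell, which held 267 of 477 PBS UMIs, and 2.65 with all members. Glycolysis genes (median -0.13) had 2 of 7 lower, beside the same 10.3% and over few genes, and survival genes (0.11) none of 3 past 2-fold. The erythroid markers, which neutrophils should lack, had both compared genes lower in CFA, with a median of -2.31. Hemoglobin RNA was 20.7% of everything counted in PBS and 7.89% in CFA, and the part of free RNA in the erythroid values was not tested.

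Droplet libraries carry free RNA, so shares of cells with a UMI were set beside Schwann cells and endothelial cells of the same CFA library, after thinning every cell to 1000 UMIs. Before thinning, median depths were 3694.5 UMIs in the 84 CFA neutrophils, 3676 in Schwann cells and 4710.5 in endothelial cells. A Retnlg UMI was in 85.7% of the 84 CFA cells (72 cells), 1.63% of Schwann cells and 1.25% of endothelial cells. Il1b was found in 94.0% (79 cells) against 2.45% and 4.49%, and Cxcl2 in 84.5% against 5.45% and 5.82%. Mmp8 was found in 52.4% against 1.09% and 0.748%. Without thinning, Retnlg was in 86.9%, Il1b in 95.2% and Cxcl2 in 92.9% of the CFA neutrophils. For Il1b, Cxcl2 and Mmp8, which the rule did not use, these shares are above the background, while that of Retnlg was fixed in part by the choice of cells.

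Other genes stood closer to the shares of these 2 cell types. Isg15 was in 48.8% of CFA neutrophils after thinning, against 9.26% of Schwann cells and 13.9% of endothelial cells, and Cd274 in 36.9% against 3.54% and 18.7%. For Cd274 the 2 cell types differed, so the endothelial share may not be free RNA alone. Whether these cell types make Cd274 or Isg15 themselves was not tested. Cxcl10 was found in 15.5% against 2.72% and 2.41%. The S100a8 background was large, with a UMI in 16.6% of CFA Schwann cells after thinning and 41.3% as counted. In the 8 PBS neutrophils Retnlg was found in 100%, Il1b in 87.5%, Cxcl2 in 75% and Mmp8 in 50%, with wide intervals at this number of cells. The thinned shares come from 1 random draw of UMIs, and for Mmp8 in PBS the share varied with the draw, since another draw over all members found it in 9 of 10 cells. As counted, Mmp8 was in 8 of 8 PBS cells against 66.7% in CFA, and it was again in 8 of 8 when thinned to 2000 UMIs, so no difference between the libraries is read from the thinned share. Cxcl10 and Cxcr4 were each found in 1 of the 8 PBS cells as counted and in 0 after thinning to 1000 UMIs, and a low share was not detectable with so few cells.

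The share of a gene's kept CFA UMIs that lay in these cells was also counted. All mature neutrophils, 3.21% of kept barcodes, held 58.8% of Retnlg UMIs and 51.5% of Cxcr2 UMIs, both rule genes. For genes that the rule did not use, they held 35.4% of Il1r2, 33.3% of Mmp8, 29.5% of Hdc, 22.1% of Acod1 and 17.8% of Il1b UMIs (5682 of 32013). In the reduced set the shares were lower, at 34.1% for Retnlg, 21.1% for Il1r2, 18.5% for Hdc, 15.9% for Mmp8, 13.5% for Acod1 and 10.0% for Il1b. In PBS all mature neutrophils held 17.6% of Il1r2, 16.7% of Mmp8 and 9.70% of Hdc UMIs, but 30.9% of Acod1 and 23.1% of Il1b. For S100a9 in CFA the mature cells held 16.9%, while immature neutrophils held 69.1%, and for Lcn2 6.30% against 80.7%. In PBS immature neutrophils held 57.35% of S100a9 and 53.3% of Lcn2 UMIs, and the rest of the kept barcodes 36.1% and 43.5%. S100a9 and Lcn2 RNA was thus mostly in the immature cells, by less in PBS. S100a9 was a rule gene of both groups, so its shares were fixed in part by the choice of cells.

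Immature neutrophils and monocytes are the most alike of the other cells, and both were also chosen by measured levels, so the values are set side by side. Retnlg was at 1953 CPM in PBS and 3248 CPM in CFA immature neutrophils and at 0 and 110 CPM in monocytes. Il1b was at 145 and 929 CPM in immature neutrophils and at 706 and 1880 CPM in monocytes, below the 6983 and 9637 CPM of mature cells in the reduced set. Lcn2 was higher in immature neutrophils, at 11611 and 12477 CPM, and Mmp8 lower, at 893 and 706 CPM. In both libraries mature cells were thus highest of the 3 groups on Il1b and Mmp8, and immature cells on Lcn2. Retnlg was a rule gene, so its order was fixed in part by the choice of cells, and other-marker cells were left out of the mature group only. Cxcl2 rose from PBS to CFA in both other groups, from 338 to 1552 CPM in immature neutrophils and from 696 to 2778 CPM in monocytes.

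**Figure D3:**
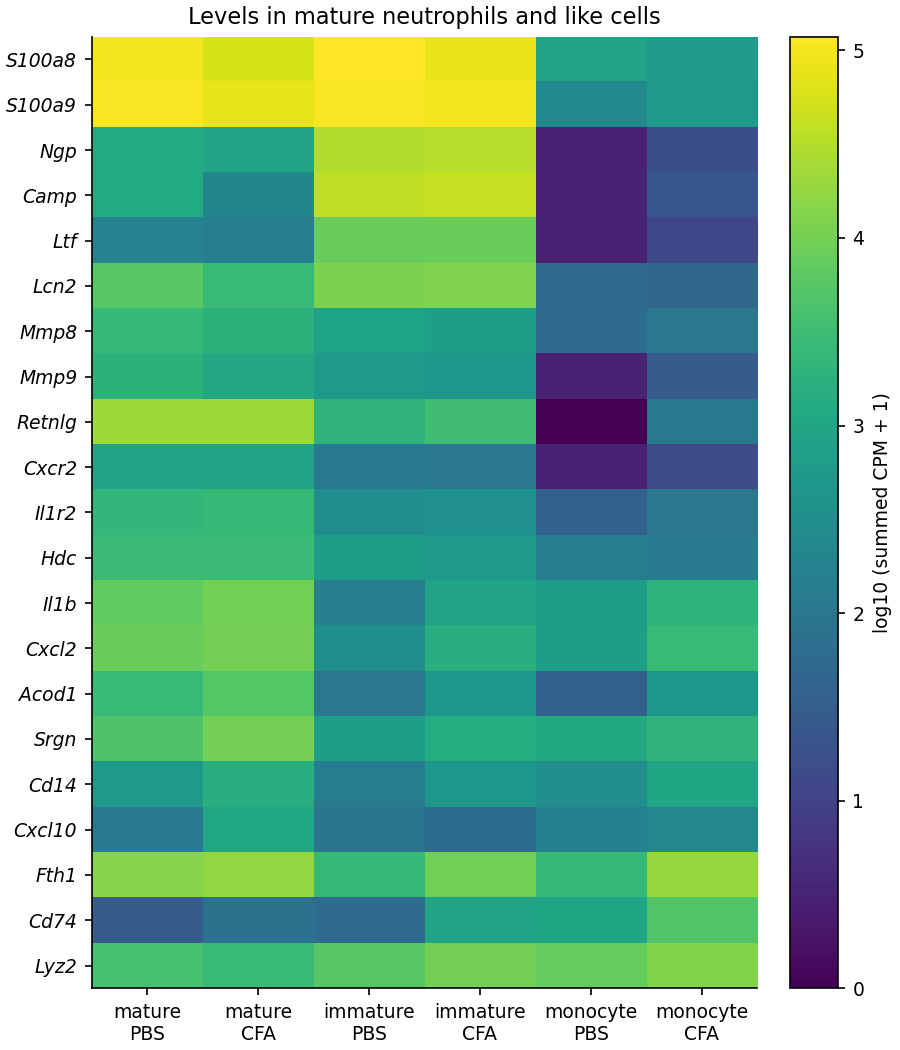
Levels of 21 genes (log10 of CPM plus 1) in mature neutrophils without other-marker cells, immature neutrophils and monocytes of each library. Il1b and Mmp8 are highest in mature neutrophils and Lcn2 in immature ones, while the order of these 2 groups on Retnlg, Camp and Ngp follows in part from the genes that chose them.

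Mature neutrophils also differed among themselves. Principal components were computed on 656 genes in the 84 CFA cells of the reduced set after thinning, and the first held 10.4% of the variance. Its genes at one end were Retnlg, S100a8, S100a6, S100a9, Mmp8, Lcn2 and Lyz2, and at the other Cxcl2, Acod1, Il1b, Wfdc17, Cd14, Nfkbia and Srgn. Its rank correlation (Spearman) across the 84 cells was -0.42 with total UMIs before thinning and 0.04 with UMIs of other-type markers. CFA cells ran from -6.12 to 7.08 with a median of -0.70. Of the 8 PBS cells projected on it, 6 lay below the CFA median, on the Retnlg side, and the highest was the cell with the Ccl4 UMIs, at 3.20. Position on this axis moved with depth, whose part in it was not tested. Retnlg, S100a8 and S100a9 were rule genes, so their place on the axis is a description.

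The same order appears in the share of UMIs per cell after thinning. Across the 84 CFA cells, which share 1 library, the gelatinase granule share had a Spearman correlation of 0.80 with the S100a8 plus S100a9 share, 0.78 with Retnlg and 0.62 with the specific granule share. It was -0.61 with interleukin-1 and other cytokines, -0.53 with chemokines, -0.51 with interferon gamma genes and -0.37 with type I interferon genes. Cytokines and NF-kB feedback genes went together at 0.70, and type I and gamma interferon genes at 0.68. Cells with more granule RNA thus had less cytokine and interferon-response RNA. S100a8, S100a9 and Retnlg were rule genes, and the rule limits part of the specific granule list. The correlations with these shares are therefore a description. Gelatinase share also had a correlation of 0.41 with total UMIs, and shares within a cell are tied because they sum to the whole.

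The S100 limit cuts into this range, since 11 of the 84 cells had a share below 3%. Among the 62 cells with a share of at least 5%, a limit chosen after the data were seen, the correlation of the gelatinase share across cells was 0.68 with S100, 0.67 with Retnlg, -0.60 with cytokines, -0.28 with chemokines and -0.27 with type I interferon genes. The inverse relation with cytokines was as large in these cells, and those with chemokines and type I interferon genes were smaller.

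**Figure D4:**
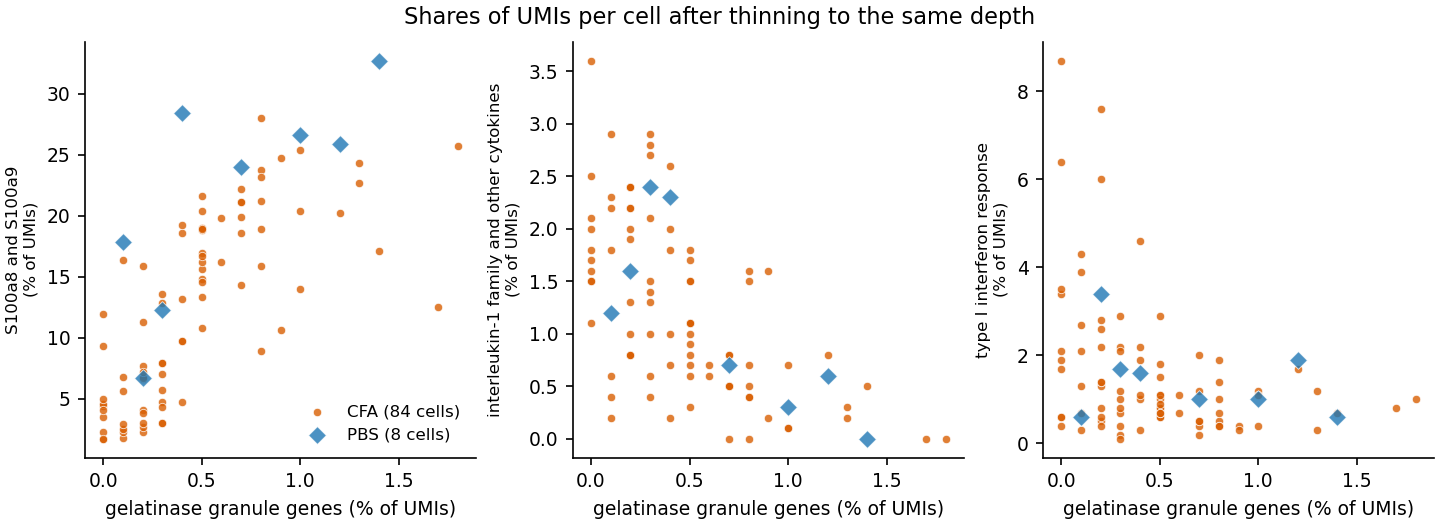
Share of UMIs in gelatinase granule genes per cell against the shares of S100a8 plus S100a9, of interleukin-1 and other cytokines and of type I interferon genes, after thinning to 1000 UMIs (84 CFA and 8 PBS cells). The first rises with the gelatinase share (0.80 across the CFA cells) and the second falls (-0.61). S100a8 and S100a9 were rule genes.

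To show which genes follow this order, the 84 CFA cells were ranked by gelatinase granule share and the 28 lowest (gelatinase-low) were set against the 28 highest (gelatinase-high). The medians of the share were 0.141% and 0.846%. This is a range and not a pair of types, and 35 of the 84 cells lay within 0.1 percentage points of a limit. Median depth was 2920 UMIs in gelatinase-low and 4738 in gelatinase-high cells, and the median S100 share 4.82% and 18.9%. Of 1237 genes compared, 89 were at least 2-fold higher in gelatinase-high cells (7.19%) and 245 in gelatinase-low cells (19.8%), with a median log2 ratio of high over low of -0.28. S100 RNA fills more of the high cells, and the part of that, of scaling and of depth in these counts was not tested.

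Several chemokine, cytokine and interferon-response genes were higher in gelatinase-low cells, and counts by list are given below. Cxcl2 was at 19152 CPM in gelatinase-low and 5331 CPM in gelatinase-high cells, a 3.59-fold difference (3.30 to 3.92). Il1b was at 16294 and 4899 CPM, 3.33-fold (3.04 to 3.64). Acod1 was at 10147 and 2369 CPM, 4.28-fold, and Cd14 at 2947 and 599 CPM, 4.92-fold. Isg15 was at 3113 and 216 CPM, 14.4-fold, and Cd274 at 1706 and 119 CPM, also 14.4-fold. Cxcl10 showed a 22.8-fold difference, from UMIs in 9 and 4 cells, with 34.9% of the low cells' UMIs in 1 cell, so it was a property of few cells.

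Gelatinase-high cells were higher on Retnlg, at 33242 CPM against 3013 CPM (11-fold), and on Lcn2, at 4899 against 465 CPM (10.5-fold). Wfdc21 was 6.78-fold higher, Ly6g, the surface protein by which mouse neutrophils are sorted, 7.89-fold, and Anxa1, an annexin that limits neutrophil entry, 4.63-fold. Mmp8 (31.1-fold) belongs to the list used for ranking, so its difference was set by the choice of cells. Several other neutrophil genes were as high or higher in the low cells. Csf3r was 2.03-fold, Clec4d 2.28-fold and Hdc 1.93-fold higher in gelatinase-low cells, while Il1r2 differed little (1.17-fold) and Cxcr2 was at 964 and 962 CPM. Clec4d and Hdc had a UMI in 28 of the 28 low cells, Csf3r in 27, Il1r2 in 25, Trem1 in 21 and Cxcr2 in 20. Csf3r and Cxcr2 were part of the rule, so their presence was fixed in part by the choice of cells. Clec4d, Hdc, Il1r2 and Trem1 were not, and they were present at both ends of the range.

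The PBS cells can be placed on this range by their summed levels. Without the 1 PBS cell, the other 7 had 3000 CPM of Mmp8, 6668 CPM of Lcn2, 25337 CPM of Retnlg and 2074 CPM of Cxcl2. These 4 levels lie nearer to the gelatinase-high than to the gelatinase-low CFA cells, which held 3450 and 111 CPM of Mmp8, but Retnlg was a rule gene and Mmp8 belongs to the ranking list. Most of the 25 genes with the largest difference toward the high end, which include rule genes and genes of the ranking list, also lay nearer to the high cells. Ly6g, at 482 CPM against 962 in high and 122 in low cells, was nearer to the high cells as a ratio but not as a difference. Mgst1, at 148 CPM against 669 and 177, lay nearer to the low cells, so the placement depends on the gene. Per cell, the gelatinase share after thinning had a median of 0.55% in the 8 PBS cells (0.1 to 1.4) and 0.4% in the 84 CFA cells (0 to 1.8), so the ranges overlapped.

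By list, the shares past 2-fold toward gelatinase-low cells are set against 19.8% of all genes. They were 6 of 10 for pattern recognition, 9 of 15 for immediate early and NF-kB feedback genes and 8 of 14 for type I interferon genes. They were 5 of 6 for interferon gamma genes, 4 of 5 for chemokines (Ccl6 went the other way) and 3 of 4 for MHC class I. For interleukin-1 family and other cytokines they were 3 of 5, and for cytokine receptors 6 of 11. Toward gelatinase-high cells they were 3 of 4 for S100 proteins (S100a8 and S100a9, both rule genes, and S100a6), 2 of 3 for specific granule genes, which the rule limits in part, and 2 of 6 for NADPH oxidase subunits, which make superoxide, against 7.19%. Among the 62 cells with the stricter S100 limit, ranked anew, Il1b was 3.05-fold, Cxcl2 2.66-fold, Isg15 6.62-fold and Cd14 5.18-fold higher at the low end, and Lcn2 7.99-fold, Retnlg 3.15-fold and Mmp8 8.27-fold higher at the high end. Each of these kept its direction, which for Mmp8 the ranking fixes, and all but Cd14 differed by less than in the 84 cells. Wfdc17, another low-end gene, differed by more, at 12.9-fold (8.56 to 20.4) against 5.51-fold in the 84 cells. Cd274, Cxcl10, Ccrl2 and Clec4n held only 5, 5, 5 and 2 UMIs at the high end, fewer than the 10 used as a minimum elsewhere. Their ratios were larger, such as 21.2-fold for Cd274 (8.73 to 67.1), but the intervals held the values of the 84 cells.

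**Figure D5:**
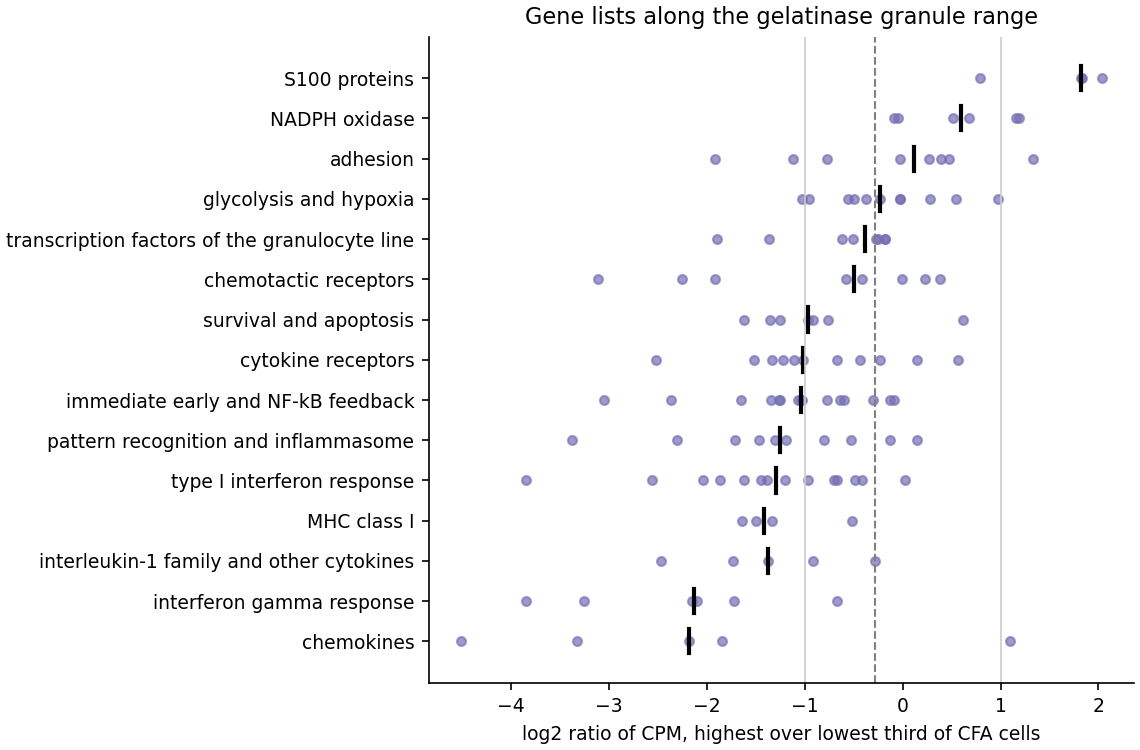
Log2 ratio of gelatinase-high over gelatinase-low CFA cells for each gene of 15 lists, with a black bar at each list's median, a dashed line at the median of all genes (-0.28) and grey lines at 2-fold. All chemokines but 1 (Ccl6) and the medians of the interferon lists lie to the gelatinase-low side and S100 proteins to the gelatinase-high side.

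Because these genes move together among the cells, the 250 bases before their start sites (RefSeq, build GRCm38.p6) were searched on both strands for 7 letter patterns, chosen after the values were seen. The sets were the 25 genes with the largest difference toward each end that reached 500 CPM at either end. Most did so only where they were high. The sets include genes of the ranking list itself and, toward the high end, the rule genes S100a8, S100a9 and Retnlg. A sequence was found for 18 genes of the gelatinase-low and 22 of the gelatinase-high set. The first pattern, GAAA followed by any 2 bases and GAAA again, is that of the interferon-stimulated response element. It was in at least 1 promoter of this length in 3.46% of 27025 genes, and the shares of all below are also of genes. It was in 5 of 18 at the low end (Cxcl10, Gbp2, Isg15, Ppp1r15a and Rsad2) and 0 of 22 at the high end. TTGNGCAA, a C/EBP pattern, was in 2.99% of all, in 0 of 18 and in 5 of 22 (Adam8, Lcn2, Ly6g, Map2k4 and Mmp8, of which Adam8 and Mmp8 belong to the ranking list). GGG followed by any 2 bases and TTTCC, an NF-kB pattern, was in 1.65%, in 2 of 18 (Casp4 and Il1rn) and in 1 of 22 (Pglyrp1), and its narrower form with A as the first of those bases, whose matches all belong to it, was in 0.414%, in 0 and in 1. The other C/EBP forms were TTNCGNAA, in 2.30%, in 0 and in 1 (Map2k4), and ATTGCNCAA, in 0.618% and in neither set. TTCCNGGAA, a STAT pattern, was in 1.09% and in neither set, which says only that these letters are not in these windows. A match describes letters and is neither a bound site nor a cause.

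The promoters of 5 genes that differed between the ends of the range are shown, as examples of the interferon, NF-kB and TTGNGCAA (C/EBP) patterns. They run 5′ to 3′ on the strand of the gene, with the pattern in capitals. Isg15 (chr4:156200819-156201068, minus strand) and Cxcl10 (chr5:92348890-92349139, minus strand) carry the interferon pattern, Isg15 in 3 overlapping matches. Cxcl2 (chr5:90903649-90903898, plus strand), outside the 25 genes, carries the NF-kB pattern in 2 places. Mmp8 (chr9:7558179-7558428, plus strand) and Lcn2 (chr2:32387740-32387989, minus strand) carry the C/EBP pattern.
Isg15: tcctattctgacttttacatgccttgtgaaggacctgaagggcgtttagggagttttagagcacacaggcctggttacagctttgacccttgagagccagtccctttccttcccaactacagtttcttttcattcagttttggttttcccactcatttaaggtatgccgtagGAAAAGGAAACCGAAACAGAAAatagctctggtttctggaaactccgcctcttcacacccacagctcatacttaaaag
Cxcl10: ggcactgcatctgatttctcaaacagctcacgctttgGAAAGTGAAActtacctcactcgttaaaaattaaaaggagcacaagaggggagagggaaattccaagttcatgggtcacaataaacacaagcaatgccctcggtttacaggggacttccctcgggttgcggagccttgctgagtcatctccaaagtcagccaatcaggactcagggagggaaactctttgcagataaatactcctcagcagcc
Cxcl2: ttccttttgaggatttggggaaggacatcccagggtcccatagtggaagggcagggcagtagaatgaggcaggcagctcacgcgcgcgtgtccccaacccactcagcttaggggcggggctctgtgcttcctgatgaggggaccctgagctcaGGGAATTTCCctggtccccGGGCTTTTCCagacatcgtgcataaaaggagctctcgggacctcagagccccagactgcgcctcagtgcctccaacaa
Mmp8: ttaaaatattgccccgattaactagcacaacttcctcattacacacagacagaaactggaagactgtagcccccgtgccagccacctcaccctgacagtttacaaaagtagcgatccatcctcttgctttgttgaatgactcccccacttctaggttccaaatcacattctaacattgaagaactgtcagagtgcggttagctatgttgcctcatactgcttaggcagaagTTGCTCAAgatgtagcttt
Lcn2: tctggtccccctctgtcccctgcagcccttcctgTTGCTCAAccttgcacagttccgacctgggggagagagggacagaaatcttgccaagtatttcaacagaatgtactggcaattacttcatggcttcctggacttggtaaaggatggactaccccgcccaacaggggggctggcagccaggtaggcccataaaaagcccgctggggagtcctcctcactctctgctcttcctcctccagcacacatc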

How the data were processed

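The deposited tables hold raw UMI counts per gene and barcode, made by the authors with Cell Ranger 7.0.1 on mm10 (GRCm38, annotation release not stated), 1 library per group. Calculations used Python 3.11.15, numpy 2.4.6, scipy 1.17.1 and pandas 2.3.3, with figures by matplotlib 3.10.9. Ratios of summed UMIs have exact conditional binomial intervals, and shares have Clopper-Pearson intervals. Members and gene lists were chosen with earlier results of these data known. Named genes were the rule genes, the 20 highest genes, the 12 highest and 12 lowest ratios (100 CPM or more), the highest and most extreme genes of each list, and a few fixed genes. The 12 highest and 12 lowest ratios without other-marker cells were added to them after the values were seen. Cells were thinned by drawing 1000 UMIs without replacement. Alternatives changed the filters, limits, scaling, minimum counts and treatment of possible doublets. The ratios of summed UMIs with their intervals and the thinning were tested on simulated counts. The simulation held no other-marker cells and no single cell with most UMIs of a gene, and the other steps were not tested in this way. Gene positions are from GENCODE vM21 and promoter sequences from RefSeq (GRCm38.p6). Symbols BC100530, Clec7a and Mx1 were not found.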

Additional observations from a re-analysis of the deposited data

How the results depend on the processing

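The CFA/PBS ratio of the share of mature neutrophils stayed between 5.38 and 17.3 under all alternatives run, within its main interval. The CFA share was 2.02% with S100a8 plus S100a9 at 5% or more and 2.09% without other-marker cells. Of all deposited barcodes, the shares were 0.130% in PBS and 2.26% in CFA.

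The counts of genes 2-fold higher and lower, 45 and 144 with all members, were 17 and 87 with S100 at 5% or more, 18 and 88 with Ngp, Camp and Ltf under 0.5%, 91 and 77 scaled by the median ratio, and 28 and 217 with totals that leave out the rule genes. They were 12 and 43 at 25 UMIs or more in each library, and 1819 and 801 of 6242 genes at 20 UMIs over both with 0.5 UMI added, a setting in which a gene can pass through CFA counts alone. With no hemoglobin limit 93 were higher, and with means over cells 76 were lower. Leaving out cells with 2 or more other-type UMIs (the same lists with Ly6c2 and without MHC class II) left 1 PBS and 20 CFA cells and gave 1 and 6 of 22 genes. Without other-marker cells they were 19 and 58, and without the 1 PBS cell too, 20 and 50.

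Ratios past 2-fold that changed direction were as follows, and the cause was not tested. With the hemoglobin limit at 5%, Hba-a1 was 1.11. At 20 UMIs over both libraries the chemokine list had a median log2 ratio of 1.58. Leaving out cells with 2 or more other-type UMIs gave Retnlg 1.58, Fth1 0.773, Lgals3 0.218, Zeb2 0.381, Wfdc21 1.32, Hspa8 0.617 and Isg15 3.81. Without other-marker cells Retnlg was 1.01, Cxcr2 1.03, Gm42418 0.974, Lyz2 0.686, Lgals3 0.975, Cd63 0.941 and Nfatc3 1.45. Without the 1 PBS cell Ccl4 was 6.42, Ccl3 3.28, Ifit3 1.31, Csf1 4.25, Il1rn 3.17, Chka 4.86, Creb5 1.86 and Rnf213 2.60. Without both, Gm42418 was 0.931, Lyz2 0.543, Ccl4 6.64, Cybb 0.881, Lgals3 0.875, Vim 0.892, Ccl3 3.43, Nfatc3 1.14, Ifit3 1.87, Csf1 7.71, Il1rn 4.99, Isg15 1.49 and Rnf213 2.39. Among members with at most 10000 UMIs, Cxcr2 was 1.06, Lyz2 0.813, Cd74 0.639, Tmsb10 0.416 and Cybb 0.674.

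Under the mitochondrial limit of 5%, 104 of 104 named ratios moved by less than their interval, and with at least 1000 genes 103 of 104. Scaling by the median ratio multiplies every ratio by 1 factor, which moved 29 of 104, reversed none of those past 2-fold and took some smaller ones across equality, among them Cxcl2 (0.832 to 1.04). With no hemoglobin limit 51 of 104 moved, with S100 at 5% or more 38 of 104, with Ngp, Camp and Ltf under 0.5% 31 of 99, and with means over cells 43 of 104. Without other-marker cells 57 of 101 moved, without the 1 PBS cell 14 of 102, without both 51 of 98, and with at most 10000 UMIs 66 of 104, beside the reversals above. The alternatives that leave out other-marker cells, the 1 PBS cell or cells over 10000 UMIs, and the one with S100 at 5% in the 84 cells, were added after the data were seen.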

Other observations

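Limits. Each group is 1 library, so condition, animal and library cannot be told apart. PBS gave 10 cells, and 1 UMI is 29.1 CPM in the reduced set, so low levels there were not detectable at this depth. Genes with fewer than 10 UMIs in PBS were left out of the main counts of genes and lists. Some ratios are still given on fewer PBS UMIs, such as Cxcl10 on 4 and Cxcr4 on 1, and these are not well set. The rule cuts a continuous range by S100 share, so its limit sets how many cells with low granule RNA are included. CD45 depletion precedes all counts. Free RNA was gauged through Schwann and endothelial cells and not removed. Proteins, oxidant release and cell behaviour were not analysed here.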
